A study of Mus musculus with 27 samples.

Results

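RNA of splenic B cells treated with lipopolysaccharide (LPS) for 2 days was compared with RNA of resting, untreated splenic B cells. The 8 samples were chosen by their labels and are all the non-malignant samples among the 27 of the series; the other 19 are lymphomas and were not compared here. Each treatment had 1 wt sample and 1 sample of each of the lines named cr, co and hv, which the labels describe as c-myc Igh transgenic mice without saying what the names stand for, so that 6 of the 8 samples carried a Myc transgene and the wt samples did not. All cells came from spleens and were purified on B220, the long form of the surface phosphatase CD45 that B cells carry. The labels give no strain, age or sex, no dose of LPS, no element that drives the transgene and no word on pooling, and they do not say what the untreated cells went through in the 2 days, so that LPS and those 2 days cannot be told apart. They also do not say whether the 4 samples of a treatment were 4 mice, and the p-values then measure only the spread between these samples.

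LPS is a part of the outer wall of Gram-negative bacteria that B cells sense through the Toll-like receptor TLR4 with its partner MD-2, and through the related receptor RP105 with MD-1. Signals run through the adaptor MyD88 to the transcription factor NF-kappaB. A resting B cell is small, does not divide and circulates through lymphoid organs along chemokine and lipid gradients; LPS makes it grow, divide, switch its antibody class and in part turn into an antibody-secreting plasmablast without help from T cells.

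The authors' values are TPM, a transcript's level per unit of length, scaled to the same total in every sample. The table held 88198 transcripts of 30735 genes, and the steps between its low values, taken as whole reads, placed the depth of the 8 samples between 21464200 and 32032600 read pairs. Tests used the 11999 genes with at least 1 TPM in at least 4 samples, on the log2(TPM + 1) scale with limma, and a gene was called at a Benjamini-Hochberg adjusted p under 0.05. That scale understates the change of low genes; differences below are LPS minus resting on it, given ± SE. Of the genes tested 58.2% were called, 25.2% higher after LPS and 33.0% lower, and in 52.3% the 2 groups did not overlap. Counts for gene groups below are read beside these shares and beside the median difference over all genes tested, -0.16. Values per sample are given in the order wt, cr, co, hv. 3 libraries (resting wt, LPS-treated cr and LPS-treated hv) held more than 1% of their TPM in Gm10800, a predicted gene made of satellite repeats. Without them 5531 genes were called and the higher share of the calls was 55.5%, against 43.3% with them. Another predicted gene, Gm20594, held 17.2 to 19.7% of TPM at rest and 10.9 to 16.3% after LPS. The higher share of the calls was 37.8% after rescaling without erythroid and macrophage genes, and 38.6% without predicted Gm genes as well. It was 46.0% under median-of-ratios scaling and 51.0% with protein-coding transcripts only, so the balance of higher and lower calls depends on the scaling.

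RNA of genes that mark other cell types was present in the resting samples and was set apart first. How it came into the samples was not tested. The 33 erythroid genes in the table summed to 12050, 112900, 57510 and 115000 TPM in the resting samples and to 199.9, 1966, 1445 and 2252 TPM in the LPS-treated ones, which is 1.20 to 11.5% of resting TPM and 0.020 to 0.225% after LPS. The resting wt sample stood well below the other resting samples, and no LPS-treated sample reached any resting one. Of the 32 tested, 30 were lower after LPS and none higher, with a median difference of -4.60. Alas2, the enzyme that starts haem synthesis in red cell precursors, stood at 82, 770.4, 338 and 738 TPM at rest and at 0.623, 7.65, 5.0 and 8.46 TPM after LPS. The 34 macrophage genes in the table summed to 646, 2784, 996 and 2355 TPM at rest and to 46.1, 175, 87.7 and 126 TPM after LPS, and 25 of the 28 tested were lower with a median of -3.15. C1qa, a complement subunit that red pulp macrophages make, went from 29.3, 232, 41.2 and 156 to 0, 0.49, 0.204 and 0.248 TPM, where the 0 is a value listed at 0. Pancreas and fat genes were low but present at rest, with sums of 88.4, 195, 202 and 166 TPM against 1.3, 3.34, 4.35 and 3.24 TPM after LPS. All 11 tested were lower, but with such sums after LPS they passed the filter mainly through the resting samples, so this count is no support. No erythroid gene, 1 macrophage gene and 1 pancreas or fat gene was listed at 0 in all LPS-treated samples. Of the genes tested for T cells 3 of 10 were lower, for natural killer cells 7 of 7, for neutrophils 4 of 7, for dendritic cells 8 of 10 and for platelets 7 of 8, and none was higher. Their sums at rest ran from 35.5 to 214 TPM for T cells, 16.9 to 74.6 TPM for natural killer cells, 57.5 to 732 TPM for neutrophils, 51.9 to 228 TPM for dendritic cells and 50.3 to 211 TPM for platelets. After LPS the same sums ran from 16.6 to 33.7, 2.10 to 11.4, 12.0 to 35.8, 25.4 to 42.7 and 4.23 to 13.3 TPM. A gene of another cell type under 1 TPM in all LPS-treated samples passed the filter only through the resting ones. Its direction was thus set in advance, which bears most on pancreas and fat, natural killer and platelet genes. Genes that define B cells made up 1.52 to 2.91% of TPM at rest and 1.15 to 1.77% after LPS. Of the 12 tested, 8 were lower and 1 higher, with a median of -1.08, so a fall of marker genes was not limited to other cell types. In such bulk samples fewer cells of a type and less RNA per cell cannot be told apart.

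**Figure D1:**
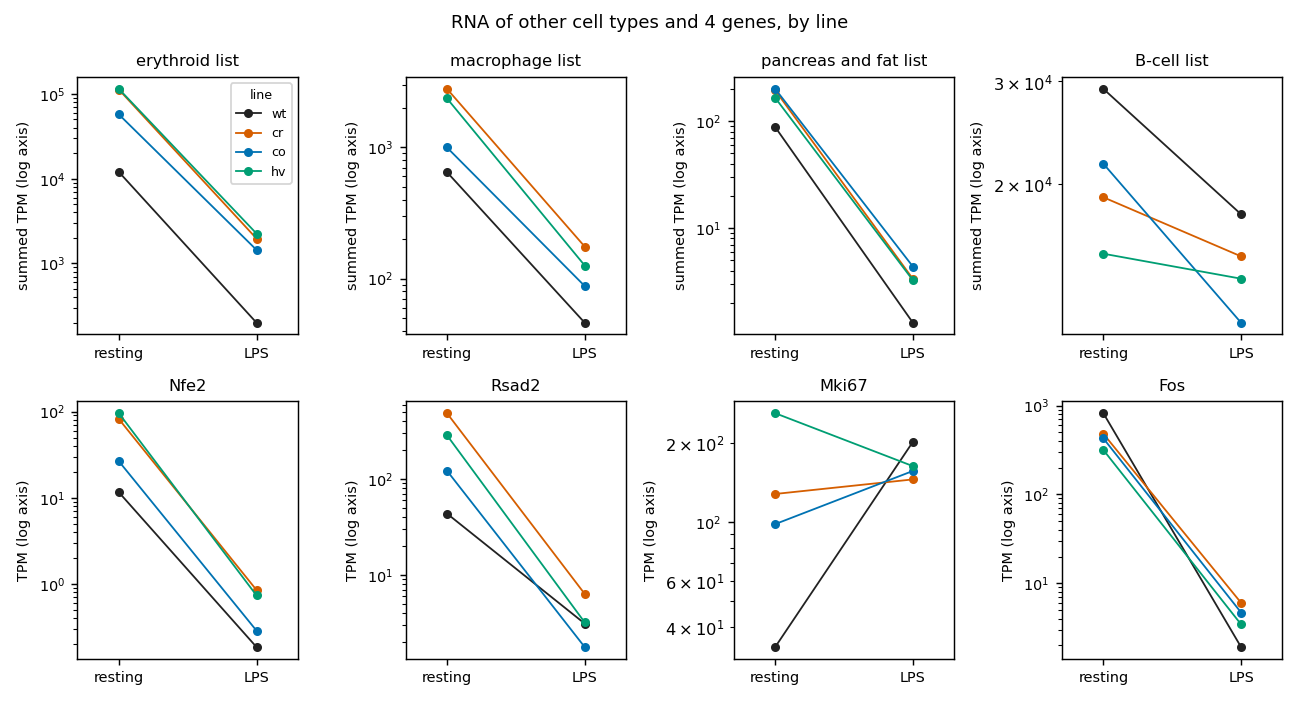
Summed TPM of 3 marker lists of other cells and of the B cell list (top) and TPM of 4 genes (bottom), on log axes, with 1 line of points per mouse line from resting to LPS. The erythroid list lies between 12050 and 115000 TPM in the resting samples and between 199.9 and 2252 TPM after LPS.

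Falls after LPS were then described by their level in resting wt, the resting sample with the least erythroid and macrophage RNA. Resting wt was also the only resting sample without the Myc transgene and the only one above 1% of TPM in Gm10800. RNA of other cells, genotype and library therefore cannot be told apart in this description. Resting wt was taken because it held the least erythroid and macrophage RNA. Low resting wt values of those lists follow from that choice and are no support for it. In 27 of the 32 erythroid genes but only 4 of the 28 macrophage genes the resting wt level was at least 2-fold below every other resting sample, against 2.08% of all genes tested. Among the 649 genes called lower by more than 2 on the log2 scale, 97 had that pattern, of which 61 were on no list of another cell type. 26 had the opposite pattern, with resting wt at least 2-fold above the others, and none of those was on such a list. Ordered by resting wt minus the mean of the other resting samples, 242 of the 649 lay below -1, and they held 30 erythroid and 21 macrophage genes but no immediate early, homing or quiescence gene. The 277 above 0 held 21 immediate early, 9 homing and 6 quiescence genes, no erythroid and no macrophage gene.

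**Figure D2:**
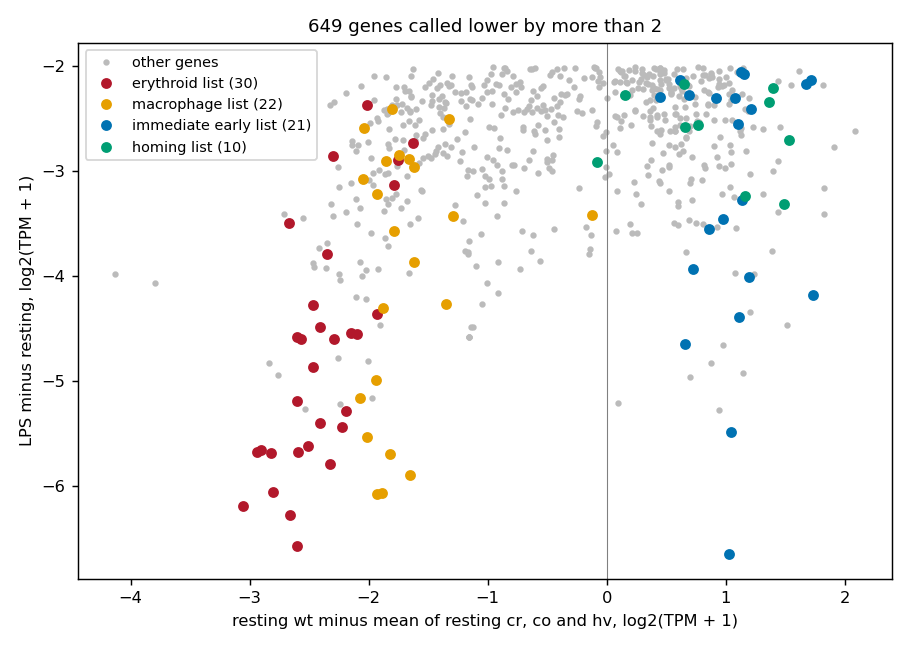
Genes called lower by more than 2 on the log2 scale, with resting wt minus the mean of the other resting samples on the x axis and the LPS minus resting difference on the y axis, both in log2(TPM + 1), and listed genes in colour. Erythroid genes lie between -3.06 and -1.63 on the x axis and immediate early genes between 0.45 and 1.73. Resting wt was taken for its low erythroid and macrophage RNA, so the low x values of these genes follow from that choice.

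Several of the deepest falls outside the marker lists shared the low resting wt value of the erythroid genes. Rsad2, an antiviral enzyme induced by interferon, stood at 43.6, 487, 122 and 287 TPM at rest and at 3.09, 6.31, 1.76 and 3.18 TPM after LPS (-5.27 ± 0.75, adjusted p 0.000791). Nfe2, a transcription factor of red cell precursors, went from 11.6, 82, 26.6 and 95.7 to 0.186, 0.852, 0.288 and 0.738 TPM (-4.78 ± 0.64). Both were lowest in wt among the resting samples, as was Sox6, another such factor, which differed by -4.20 ± 0.55. Among iron and haem genes 11 of 23 were lower and 3 higher. The exporter Slc40a1, which is also on the macrophage list (15.3, 93.6, 29.7 and 82.5 TPM at rest, 0.159, 1.09, 0.119 and 0.416 TPM after LPS), and the last haem enzyme Fech (28.9, 183, 80.2 and 212 TPM, then 8.1, 7.51, 8.28 and 8.77 TPM) shared the low resting wt value. Alas1, the form of Alas2 that other cells use, was higher instead, at 15, 12.6, 13.5 and 10.3 TPM and then 29.1, 17.4, 21.1 and 24.1 TPM (0.77 ± 0.19, adjusted p 0.00407). What part RNA of other cells had in these differences was not tested.

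LPS sensing genes were mostly lower after LPS: 12 of 21 were called lower and 3 higher, with a median of -0.62. The receptor gene Tlr4 overlapped between the groups, with 12.1, 14, 7.59 and 13.1 TPM at rest and 10.5, 6.67, 8.68 and 8.33 TPM after LPS (-0.40 ± 0.21, adjusted p 0.127). Cd180, which encodes RP105, went from 173, 83.5, 118 and 82.5 to 45.6, 25.9, 42 and 42.6 TPM (-1.49 ± 0.26, adjusted p 0.000405). Tlr7 and Tlr9, the receptors for RNA and DNA in endosomes, differed by -1.61 ± 0.25 and -1.72 ± 0.27. The 3 adaptors Myd88, Tirap and Ticam2 were each higher by little (0.52 ± 0.18, 0.57 ± 0.18 and 0.58 ± 0.17). Tirap and Ticam2 were not called without line co or line hv, nor Myd88 without line wt, co or hv. Of 18 NF-kappaB subunits and feedback genes, 9 were lower and 1 higher. The gene that rose was Nfkbia, the inhibitor that NF-kappaB itself induces, from 94.6, 87.6, 96 and 83.2 TPM to 265, 122, 162 and 160.3 TPM (0.91 ± 0.22, adjusted p 0.00331). Rel, the subunit most tied to B cell division, fell from 134, 42.1, 58.9 and 46.7 TPM to 19.4, 8.52, 14.3 and 13.7 TPM (-2.14 ± 0.37), and the ubiquitin-editing inhibitor Tnfaip3 from 182, 94.7, 104 and 89.3 to 51.6, 18.6, 26.3 and 23 TPM (-1.99 ± 0.32).

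Immediate early genes, which cells switch on within minutes of a signal and off again, were high in the resting samples: 30 of 32 were lower after LPS and none higher, with a median of -2.22. Fosb, a subunit of the factor AP-1, stood at 154, 80.7, 82.6 and 61.2 TPM at rest and at 0.591, 1.27, 1.35 and 0.926 TPM after LPS (-5.49 ± 0.26, adjusted p 8.06e-08). Dusp1, a phosphatase that ends MAP kinase signals, went from 221, 146, 133 and 139 to 7.01, 4.76, 4.66 and 4.88 TPM (-4.65 ± 0.20), and the orphan receptor Nr4a1, a readout of antigen receptor signals, from 197, 64.1, 55.4 and 56.5 to 4.64, 2.46, 3.42 and 3.41 TPM (-4.19 ± 0.39). The groups lay far apart in all 3, and the resting wt sample was the highest of all. Cd69, an early activation antigen that also keeps lymphocytes in place, followed the same course, at 546, 128, 176 and 135 and then 39, 18.2, 31.5 and 30.8 TPM (-2.77 ± 0.47, adjusted p 0.00106).

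Quiescence genes fell without exception among those called: 22 of 25 were lower, with a median of -1.65. Tsc22d3, the leucine zipper GILZ, stood at 668, 264, 512 and 309 TPM at rest and at 14.1, 6.81, 9.09 and 9.61 TPM after LPS (-5.27 ± 0.30, adjusted p 5.57e-07). Klf2, which holds B cells quiescent and sets where they home, went from 335, 136, 175 and 127 to 10.2, 7.81, 5.94 and 7.98 TPM (-4.34 ± 0.29, adjusted p 8.94e-07). Irs2, an insulin receptor substrate that FOXO factors induce, differed by -4.66 ± 0.25. Homing receptors fell alongside, with 15 of 20 lower, 1 higher and a median of -1.76. Cxcr4, the receptor that draws cells to bone marrow and to the dark zone, stood at 564, 149, 288 and 187 TPM and then 27.8, 28.9, 21.5 and 23.6 TPM (-3.31 ± 0.36, adjusted p 5.12e-05), and S1pr1, the sphingosine phosphate receptor for leaving lymphoid organs, at 153, 73.9, 79.5 and 53 and then 7.48, 6.94, 7.89 and 9.66 TPM (-3.23 ± 0.27). The integrin chain Itgb7 differed by -2.91 ± 0.19. The member that rose was Itgb1, the common beta chain of matrix integrins, by 0.96 ± 0.23.

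**Figure D3:**
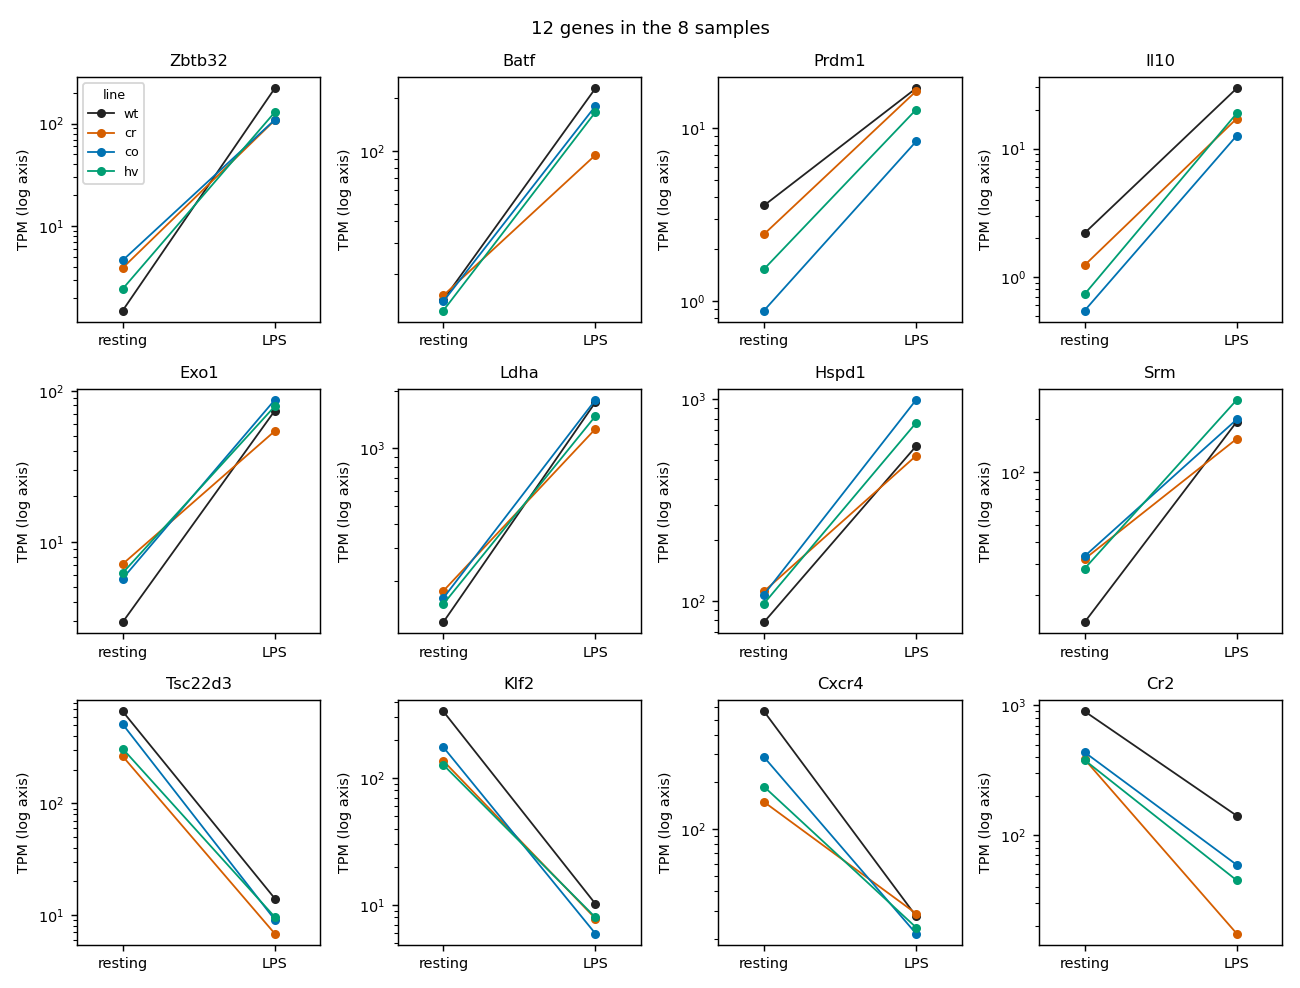
TPM of 12 genes on log axes, with 1 line of points per mouse line from resting to LPS. In Tsc22d3 the resting samples lie between 264 and 668 TPM and the LPS-treated ones between 6.81 and 14.1 TPM.

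Genes of the antigen receptor's partners were lower in 17 of 21 cases and higher in 1, with a median of -1.33. Cr2, the complement receptor CD21 that follicular and marginal zone B cells carry, stood at 900.3, 384, 436 and 379 TPM at rest and at 142, 17.5, 59.2 and 45 TPM after LPS (-3.24 ± 0.61, adjusted p 0.0025). Pirb, an inhibitory receptor shared with myeloid cells, differed by -2.42 ± 0.20. Fcrl5, an Fc receptor-like molecule of innate-like B cells, was the member called higher (1.01 ± 0.30). Of 26 B cell transcription factors, 16 were lower and 2 higher, with a median of -0.67. Bach2, which holds off the plasma cell programme, fell from 242, 91.8, 154 and 95.2 to 37.7, 13.2, 14.6 and 23.6 TPM (-2.66 ± 0.40, adjusted p 0.000399), and the lineage factor Ebf1 from 248, 103, 137 and 96.3 to 55.7, 20.8, 25.6 and 30.6 TPM (-2.09 ± 0.36). Mef2b, a partner of germinal centre genes, rose by 3.38 ± 0.25. Irf4, which drives switching at low and plasma cells at high dose, overlapped between the groups at 230.1, 78, 79.5 and 63.9 and 133, 97.8, 97.1 and 109.7 TPM (adjusted p 0.742).

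Activation antigens split, with 4 of 23 higher and 8 lower. Il2ra, the interleukin 2 receptor alpha chain, stood at 3.39, 1.3, 2.62 and 1.33 TPM at rest and at 11.9, 9.69, 6.87 and 5.87 TPM after LPS (1.61 ± 0.27, adjusted p 0.000281), and the ligand gene Tnfsf9 rose by 1.45 ± 0.23. Icosl and Cd274, the ligands of ICOS and PD-1, fell by 3.49 and 2.26 on the log2 scale. Among cytokines and chemokines 5 of 20 were higher and 10 lower. Il10, an inhibitory cytokine that B cells make after Toll-like receptor signals, stood at 2.2, 1.24, 0.547 and 0.735 TPM and then 29.5, 17.2, 12.6 and 18.9 TPM (3.23 ± 0.28, adjusted p 3.03e-06), and Ebi3, a subunit of interleukin-27, rose by 1.79 ± 0.35. Il18, a product of myeloid cells, differed by -2.98 ± 0.41 and was low in resting wt and co and higher in resting cr and hv. Cytokine receptors were lower in 15 of 22 cases and higher in 1, among them the interferon gamma receptor Ifngr1, from 92, 81.2, 66.2 and 63.8 to 18.2, 15.7, 16.4 and 17.2 TPM (-2.09 ± 0.17, adjusted p 1.82e-06). The receptor that rose was Tnfrsf13b (TACI), which binds the survival factors BAFF and APRIL (1.31 ± 0.26). MHC class I genes were lower in 11 of 18 cases, with H2-Q7 at 251, 159, 175 and 149 TPM and then 97.3, 37.7, 41.9 and 40.3 TPM (-1.83 ± 0.30). MHC class I genes are close copies of each other, so how reads were split among them is uncertain. The 3 class I members called higher were the ER chaperones Calr and Pdia3 (1.08 ± 0.17 and 0.90 ± 0.17) and the immunoproteasome subunit Psmb8, which was not called without line wt, co or hv.

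Genes of class switching rose in 14 of 24 cases and fell in 2, with a median of 0.68. Batf, an AP-1 partner that B cells need to switch class, stood at 14.3, 15.2, 14 and 12.4 TPM at rest and at 227, 95, 180.2 and 166 TPM after LPS (3.42 ± 0.24, adjusted p 5.4e-07), and the exonuclease Exo1 went from 2.94, 7.14, 5.72 and 6.23 to 73.9, 54.2, 87.2 and 79.1 TPM (3.55 ± 0.24). No resting sample reached any LPS-treated one in either gene. Plasma cell genes were higher in 10 of 19 cases and lower in 3. Prdm1, the repressor Blimp-1 that sets the plasma cell fate, went from 3.58, 2.44, 0.88 and 1.53 to 17.1, 16.4, 8.4 and 12.8 TPM (2.27 ± 0.29, adjusted p 5.31e-05), and Derl3 and Mzb1, helpers of antibody folding in the ER, rose by 1.75 ± 0.27 and 1.69 ± 0.18. Slpi and Tent5c fell (-3.18 ± 0.56 and -2.37 ± 0.62) and had low resting wt values, and the call of Tent5c was lost without line co or line hv.

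Of 9 immunoglobulin constant genes tested, of heavy and light chains, 2 were higher and 2 lower, all 4 of them heavy chain genes. Igha, the constant region of IgA, stood at 56.4, 78, 125 and 196 TPM at rest and at 1.15, 5.82, 5.09 and 4.06 TPM after LPS (-4.48 ± 0.47, adjusted p 8.68e-05). Ighd, that of IgD on naive B cells, went from 922, 436, 827 and 406 to 101, 16.6, 73.5 and 59.8 TPM (-3.51 ± 0.57, adjusted p 0.00106). Ighg2b and Ighm were called higher (1.19 ± 0.34 and 0.90 ± 0.29), but neither was called without line cr or line hv, nor Ighm without the LPS-treated cr sample alone. Within Ighm the 2 transcripts parted. Ighm-201, which ends in the secreted tail, stood at 672.5, 454.7, 641.6 and 401.8 TPM at rest and at 3859, 3962, 1488 and 2675 TPM after LPS. Ighm-202, which splices on to the membrane exons, stood at 2874, 1488, 1889 and 1098 TPM and then at 1798, 1028, 1352 and 1294 TPM. The secreted transcript made up 23.6% ± 3.4 of Ighm at rest and 66.8% ± 11.1 after LPS (SD, n = 4 each), a log2 usage difference of 2.76 ± 0.34 (SE, adjusted p 0.000402 by limma), with every LPS-treated sample above every resting one.

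The ends that set the 2 Ighm forms apart are shown because the reads for each form rest on them. Both lie on chromosome 12, minus strand, build GRCm38: the secreted tail at chr12:113420867-113420928, with its stop codon in capitals, and the first membrane exon at chr12:113418953-113419068, which codes for the membrane-spanning stretch.
Ighm secreted tail: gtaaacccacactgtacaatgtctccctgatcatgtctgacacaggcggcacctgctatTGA
Ighm first membrane exon: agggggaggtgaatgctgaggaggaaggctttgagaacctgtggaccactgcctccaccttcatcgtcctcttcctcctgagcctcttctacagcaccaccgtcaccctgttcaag

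Of 23 cytoplasmic tRNA synthetase genes 21 were higher and none lower, with a median of 1.36, and Gars, the glycyl-tRNA synthetase, stood at 34, 43.8, 42.1 and 35.9 TPM at rest and at 190.4, 141, 198 and 197 TPM after LPS (2.19 ± 0.18, adjusted p 1.66e-06). Translation factors were higher in 28 of 40 cases and lower in 3, led by Eif1ax (2.22 ± 0.21) and Eif4ebp1, the cap-binding inhibitor that mTOR controls (16.1, 19.6, 19.8 and 14.4 and then 81.4, 68, 83.3 and 83 TPM, 2.12 ± 0.17). Those that fell were Eif4g3, Eif4a2 and Eif1, each by less than 1 on the log2 scale. Genes of RNA polymerases I and III were higher in 16 of 30 cases and lower in 3, with Maf1, the repressor of polymerase III, among the latter (-1.26 ± 0.18). Amino acid transporters split evenly, 6 of 18 each way, and their median of -0.32 became 0.023 with a minimum of 5 TPM or with coding transcripts only. Slc7a3, a carrier of arginine and lysine, stood at 0.466, 0.226, 0.361 and 0.242 TPM at rest and at 25.5, 12.2, 25.9 and 25.3 TPM after LPS (4.08 ± 0.24, adjusted p 2.31e-07). Slc38a5 and Slc43a1 fell (-2.55 ± 0.45 and -2.49 ± 0.52) and had low resting wt values. Polyamine genes were higher in 8 of 13 cases and lower in 2, with Srm, spermidine synthase, at 14.1, 32.1, 33.3 and 28.4 and then 193, 154, 198 and 256 TPM (2.89 ± 0.26, adjusted p 4.64e-06).

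All 37 mitochondrial ribosome genes and all 30 mitochondrial import and chaperone genes tested were higher, with medians of 1.45 and 1.42. Hspd1, the chaperonin HSP60 of the matrix, stood at 78.4, 112, 108 and 97 TPM at rest and at 586, 525, 994 and 764 TPM after LPS (2.82 ± 0.22, adjusted p 1.28e-06), and Mrpl12, a ribosome subunit that also binds the mitochondrial polymerase, at 16.3, 19.3, 27.2 and 22.2 and then 84.2, 61.2, 109 and 105 TPM (2.02 ± 0.22). Genes of the tricarboxylic acid cycle rose in 20 of 24 cases and fell in none, with Idh3a ahead (2.00 ± 0.20). The genes that the mitochondrial DNA itself encodes did not move as a group, with 2 of 13 higher, 1 lower and a median of -0.04. Of those 3, mt-Co2 and mt-Nd1 were not called without line co or line hv, nor mt-Nd4 without line wt.

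Glycolysis and hypoxia genes rose in 17 of 25 cases and fell in 2, with a median of 1.40. Ldha, lactate dehydrogenase A, stood at 122, 178, 164 and 152 TPM at rest and at 1746, 1265, 1796 and 1477 TPM after LPS (3.34 ± 0.19, adjusted p 1.92e-07), and Pgk1, phosphoglycerate kinase, at 74.5, 97.2, 85.5 and 76 and then 1311, 830.5, 1210 and 873 TPM (3.63 ± 0.20, adjusted p 1.71e-07). Bnip3, a mitophagy receptor that hypoxia induces, rose by 3.51 ± 0.28. Hk3, the hexokinase of myeloid cells, fell (-2.48 ± 0.44). Fatty acid genes were higher in 11 of 23 cases and lower in 4, with the desaturases Fads2 and Fads1 ahead (3.76 ± 0.28 and 2.13 ± 0.30). Of 27 pentose phosphate and redox genes 16 were higher and 3 lower: the thioredoxin system genes Txn1 and Txnrd1 rose (1.97 ± 0.28 and 1.82 ± 0.19), while Gpx1 and Cat, which are abundant in red cells, fell (-2.37 ± 0.44 and -1.59 ± 0.27) with low resting wt values.

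Pyruvate kinase showed a change of form on top of its rise. Pkm-201, which holds the exon of the PKM2 enzyme of growing cells, stood at 104.8, 143.1, 125.1 and 110.7 TPM at rest and at 1469, 1020, 1287 and 1104 TPM after LPS. Pkm-202, with the PKM1 exon of muscle and brain in its place, stood at 19.08, 13.52, 16.44 and 10.93 TPM and then at 65.61, 25.75, 50.46 and 42.91 TPM. Both rose, and the share of Pkm-201 went from 88.8% ± 3.1 to 96.4% ± 0.8 (SD, n = 4 each; log2 usage difference 1.81 ± 0.26 (SE), adjusted p 0.000734 by limma). The 2 exons are alternatives of 167 bases at chr9:59675029-59675195 (Pkm-202) and chr9:59675568-59675734 (Pkm-201), plus strand, GRCm38. They are shown because the reads that tell the forms apart fall here: 103 bases are the same and the 64 in capitals differ.
Pkm-202 exon: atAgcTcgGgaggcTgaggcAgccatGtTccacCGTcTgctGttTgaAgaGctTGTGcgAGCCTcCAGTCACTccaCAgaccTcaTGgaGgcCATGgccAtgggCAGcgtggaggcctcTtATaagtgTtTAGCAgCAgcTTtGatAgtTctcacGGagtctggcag
Pkm-201 exon: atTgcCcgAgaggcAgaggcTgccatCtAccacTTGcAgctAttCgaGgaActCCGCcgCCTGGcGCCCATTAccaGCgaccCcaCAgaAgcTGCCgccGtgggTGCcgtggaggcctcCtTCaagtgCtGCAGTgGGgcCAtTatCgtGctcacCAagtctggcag

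Genes that make, fold and break down protein rose as well. Spliceosome genes were higher in 32 of 37 cases and lower in 4, with a median of 1.20, and Snrpd1, a core Sm protein, stood at 64.1, 63.1, 64.3 and 64.1 TPM at rest and at 229.7, 188, 297 and 273 TPM after LPS (1.91 ± 0.18, adjusted p 4.4e-06). The splicing kinases Clk1 and Clk4 fell by the sum of their transcripts (-2.46 ± 0.19 and -1.44 ± 0.20). The coding transcript Clk1-201, 7.8% of the gene at rest and 20.9% after LPS, fell by less (-1.01 ± 0.20). The coding Clk4-201 differed by -1.39 ± 0.21. Nuclear transport genes were higher in 28 of 34 cases and lower in none, with the importin Kpna2 at 30.4, 56.6, 56.2 and 73.2 and then 387, 292, 393 and 399 TPM (2.80 ± 0.25, adjusted p 2.84e-06). Proteasome genes were higher in 33 of 38 cases, led by Psmd7 and Psma6 (2.00 ± 0.19 and 1.91 ± 0.18), and lower in 1. Chaperones of the cytosol were higher in 16 of 21 cases and lower in 3. The chaperonin subunit Cct6a rose by 2.14 ± 0.22, and the heat-inducible Hspa1a and Hspa1b fell by 3.22 and 3.25 on the log2 scale, although reads of these near-identical copies cannot be assigned with certainty. ER and Golgi genes of the secretory path were higher in 33 of 40 cases and lower in 1, with Rpn1, a subunit of the oligosaccharyl transferase, ahead (2.00 ± 0.17).

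Lysosome and autophagy genes ran the other way. Of 36 lysosome genes 27 were lower and 2 higher, with a median of -1.09, and of 30 autophagy genes 20 were lower and none higher, with a median of -0.94. Gla, the lysosomal alpha-galactosidase, fell by 2.75 on the log2 scale. Ctsb, cathepsin B, stood at 44.1, 178, 62.4 and 135 TPM at rest and at 15.7, 19.9, 15.7 and 17.1 TPM after LPS (-2.34 ± 0.40, adjusted p 0.000877), with its lowest resting value in wt as in the macrophage genes. The LC3 gene Map1lc3a and the scaffold Rb1cc1 of the starting complex of autophagy differed by -1.89 ± 0.27 and -1.83 ± 0.21.

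**Figure D4:**
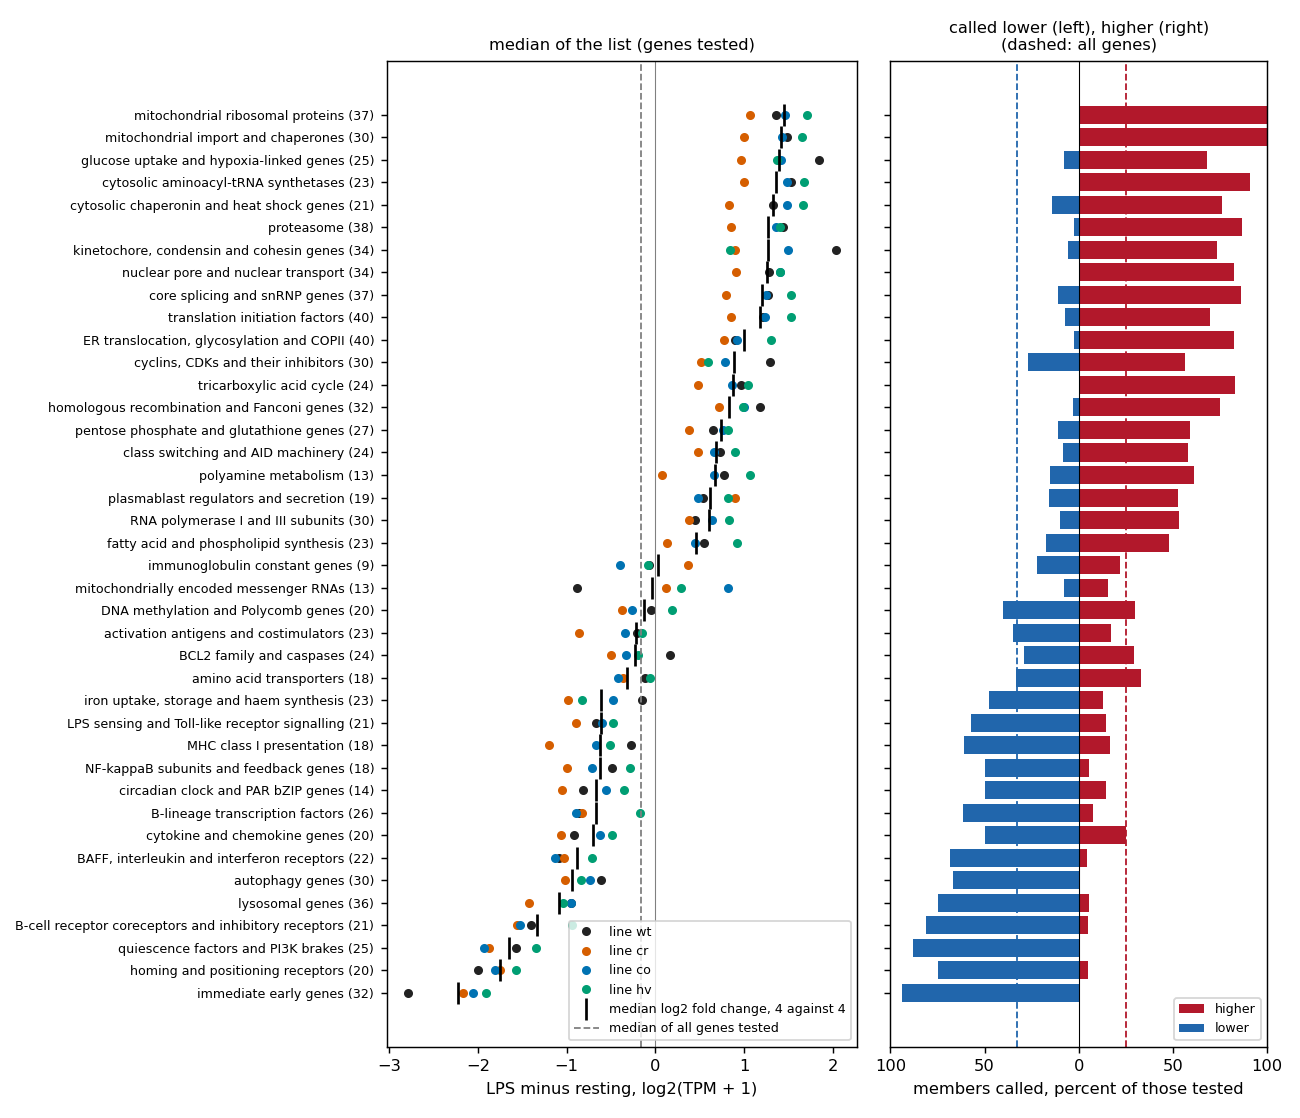
Left, the median LPS minus resting difference in log2(TPM + 1) of each gene list, over all samples (bars) and by mouse line (points); right, the percent of its tested members called lower and higher, with dashed lines for all genes. The medians run from mitochondrial ribosomes at 1.45 to immediate early genes at -2.22, and the median over all genes tested is -0.16.

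Cell division was followed in lists of kinetochore, cyclin and DNA repair genes. Kinetochore and condensin genes rose in 25 of 34 cases and fell in 2, with a median of 1.27. Bub1, a checkpoint kinase of the kinetochore, stood at 2.35, 10.6, 6.93 and 14.6 TPM at rest and at 60.9, 49.2, 58 and 57.3 TPM after LPS (2.78 ± 0.42, adjusted p 0.000484), and Ncapg, a condensin subunit, at 4.68, 14.4, 10.1 and 27.9 and then 63.3, 44.5, 63.6 and 63.2 TPM (2.19 ± 0.43). Resting wt was the lowest sample in both. The medians of the list by line were 2.04 in wt, 0.90 in cr, 1.49 in co and 0.84 in hv. Cyclins, kinases and their inhibitors were higher in 17 of 30 cases and lower in 8, with Ccne1, the cyclin of S phase entry, at 5.48, 10.8, 10.2 and 15.8 and then 41, 45.9, 64.9 and 54.9 TPM (2.25 ± 0.26, adjusted p 2.71e-05). DNA repair genes were higher in 24 of 32 cases and lower in 1, with the remodeller Hells ahead (3.07 ± 0.21). Resting wt lay at least 2-fold below every other resting sample in 2 of the 34 kinetochore genes, 7 of the 30 cyclin and kinase genes and 0 of the 32 repair genes, against 2.08% of all genes tested. Mki67, the marker of dividing cells, overlapped between the groups, at 33.5, 128, 98.3 and 259.6 TPM at rest and 202, 145, 157 and 163 TPM after LPS (adjusted p 0.31). Resting wt, with the least erythroid RNA of the resting samples and no transgene, also had the least Mki67. What part that RNA, the transgene or the library had in the resting values was not tested.

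Of 20 DNA methylation and Polycomb genes 6 were higher and 8 lower, with a median of -0.12 near that of all genes. Uhrf1, which guides DNA methylation at replication, stood at 9.62, 24.9, 20.6 and 27.9 TPM at rest and at 198, 95.1, 147 and 138 TPM after LPS (2.79 ± 0.32, adjusted p 5.12e-05), and Dnmt1 and Ezh2 rose by 1.58 ± 0.18 and 1.48 ± 0.20. Ezh1, the form of Ezh2 found in resting cells, and the demethylase Kdm6b fell (-1.61 ± 0.16 and -2.84 ± 0.20). Apoptosis genes split, with 7 of 24 higher and 7 lower. Pmaip1, the BH3-only protein NOXA, fell by 2.19 on the log2 scale. The near-identical Bcl2a1d and Bcl2a1a were called in opposite directions (1.91 ± 0.43 and -2.60 ± 0.58, the latter not called without line hv), and their reads cannot be assigned with certainty. Circadian clock genes were lower in 7 of 14 cases and higher in 2, with Per1 from 197, 85, 107 and 87.5 to 7.12, 4.99, 6.8 and 6.11 TPM (-3.97 ± 0.25, adjusted p 2.97e-07).

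Outside the lists Zbtb32, a zinc finger repressor, rose most, from 1.49, 3.9, 4.62 and 2.43 TPM at rest to 222, 108, 109 and 129.5 TPM after LPS (5.13 ± 0.30, adjusted p 5.4e-07). Bcat1, an aminotransferase of branched-chain amino acids, went from 1.57, 4.39, 2.57 and 1.85 to 65.5, 54.4, 81.9 and 76.8 TPM (4.34 ± 0.24). Tmed6, a p24 family member of the early secretory path, rose by 4.22 ± 0.40, the lactate exporter gene Slc16a3 by 4.04 ± 0.27, and Ak4, an adenylate kinase of mitochondria, by 4.01 ± 0.20. Cth and Asns, which make cysteine and asparagine, rose by 3.64 ± 0.18 and 3.47 ± 0.55, and Fabp5, a fatty acid carrier, by 3.45 ± 0.29. Among the largest falls were Rgs1 and Rgs2, which end signals of G protein-coupled receptors (-5.22 ± 0.42 and -4.96 ± 0.24), and Klf4, a relative of Klf2 (-4.39 ± 0.26). These genes were picked among those with no overlap between the groups and the same direction in all 4 lines, so neither trait is a result here.

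Paired by line, 29.3% of the genes tested were higher after LPS in all 4 lines and 38.7% lower in all 4, a description with no test. By more than 1 on the log2 scale in every line, 6.61% were higher and 10.5% lower. The line differences resembled each other least between wt and cr, with a correlation across genes of 0.707, and most between cr and hv, with 0.890; genes are not independent replicates. Among genes called with 1 direction in all lines, the widest spread was in histone genes, which poly(A) selection would miss but total RNA keeps. Hist1h2ah rose by 4.66 in wt, 1.73 in cr, 1.70 in co and 0.83 in hv on the log2 scale, as it stood at 35.7, 133, 156 and 384 TPM at rest and at 929, 442, 510.1 and 684 TPM after LPS. Histone genes are near-identical copies, so the split of reads between them is uncertain. Isg20, an interferon-induced exonuclease, differed by -0.05 in wt, -3.80 in cr, -3.14 in co and -3.82 in hv. Hist1h2ah was not called without line cr or line co, nor Isg20 without line co or line hv.

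The response of the 3 transgenic lines was set against that of wt by an interaction term, with 1 wt sample per treatment and so no spread of the wt response. In the transgenic lines the Myc level may include reads of the transgene, which a sum over the gene cannot tell apart from those of the mouse's own gene. Of the genes tested 0.25% were called, 7 (0.0583%) with a more positive and 23 (0.192%) with a more negative response in the transgenic lines, and only 1, Rpl15-ps3, was called under median-of-ratios scaling or after rescaling without erythroid and macrophage genes. Myc itself stood at 185, 121, 109.9 and 89 TPM at rest and at 55, 155, 115 and 136 TPM after LPS, a response that was 2.07 ± 0.46 (SE) higher in the transgenic lines than in wt (adjusted p 0.0444 by limma). That call was lost under median-of-ratios scaling (adjusted p 0.361), after rescaling without erythroid and macrophage genes (0.138) and with a pseudocount of 5 (0.101). Ahr, the aryl hydrocarbon receptor, stood at 24.8, 7.49, 4.13 and 5.24 and then 1.7, 4.52, 3.33 and 3.92 TPM (2.86 ± 0.47, adjusted p 0.0037, and 0.361 under median-of-ratios scaling), with resting wt the highest sample. Interferon-induced genes were among the 23, with Oasl2 at 34.2, 96, 47 and 91 TPM and then 7.57, 2.44, 1.98 and 2.38 TPM, and Usp18 at 24.9, 54, 26.3 and 25.1 TPM and then 16.2, 3.55, 3.46 and 3.51 TPM. In these genes LPS-treated wt was the highest of the LPS-treated samples. The strongest value, -14.38 for Rpl15-ps3, belongs to a processed pseudogene whose reads its parent gene shares, and is uncertain.

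At the level of single transcripts 50.4% of 32486 were called, 17.1% higher and 33.4% lower. The 5542 higher and 10839 lower calls became 4529 and 4873 without the libraries rich in Gm10800, and 4205 and 4684 with a minimum of 5 TPM. Transcripts annotated as retaining an intron leaned to lower: 409 of 7117 were higher and 3329 lower, and without those libraries 259 of 5708 were higher and 1480 lower. They made up 6.56% ± 0.22 of TPM at rest and 3.82% ± 0.48 after LPS (SD, n = 4 each; exact permutation test, two-sided p 0.0286, the smallest that 70 splits allow; adjusted p 0.0381 over 4 transcript types). Entries of the type processed transcript went from 4.09% ± 0.43 to 3.19% ± 0.43 by the same test with the same p-values. Of 3959 tested, 330 were higher and 1530 lower, so the fall was not particular to retained introns. Protein-coding transcripts went from 81.1% ± 1.4 to 85.2% ± 1.3, again with the same p-values by that test. Transcripts marked for nonsense-mediated decay made up 1.45% and 1.44% (exact p 1.0). Leaving out the erythroid and macrophage genes, the retained intron share was 6.44, 5.73, 6.4 and 5.33% at rest and 4.25, 3.1, 3.91 and 3.92% after LPS, still with no overlap. As a share of their own gene, 38.2% of 24952 transcripts were called, 15.5% higher and 22.7% lower. Retained intron transcripts were higher in 258 and lower in 2672 of 6580 cases, and processed transcripts in 206 and 1027 of 3510. The balance over all types turned with a minimum of 5 TPM, to 2918 higher and 2024 lower, and with a pseudocount of 5, to 6185 and 5743. Retained intron transcripts were then higher in 99 and lower in 871 of 1918 cases, and higher in 981 and lower in 2461 of 6580. The libraries were made from total RNA, and whether reads given to retained intron entries came from finished messages was not tested.

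**Figure D5:**
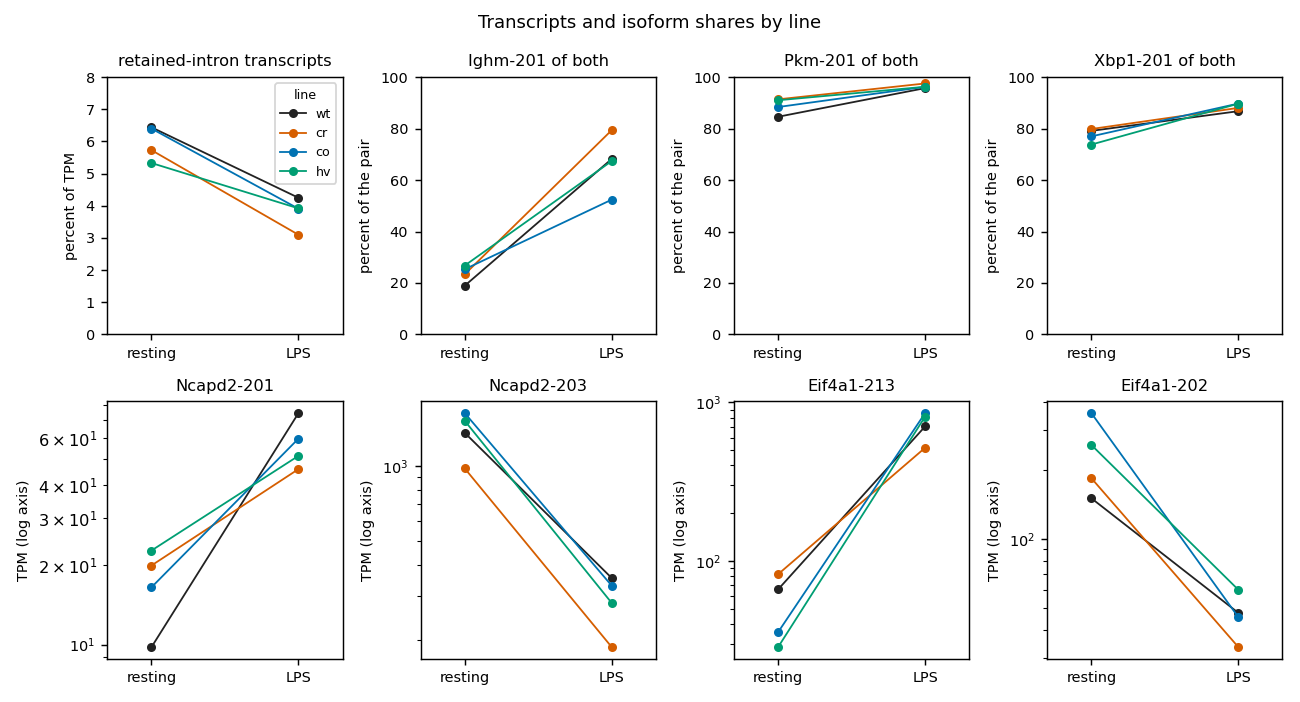
Top, retained intron transcripts as percent of TPM without erythroid and macrophage genes, and shares (percent) of a transcript within a pair; bottom, TPM of 4 transcripts on log axes; 1 line of points per mouse line from resting to LPS. The secreted Ighm transcript lies between 19.0 and 26.8% at rest and between 52.4 and 79.4% after LPS.

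Some genes turned with the transcripts that were counted. With protein-coding transcripts alone, 5 genes of 10572 were called in the opposite direction, all lower by the sum of all transcripts and higher by the coding ones, and 469 called by the sum were not called. The condensin gene Ncapd2 was the clearest. Its retained intron transcript Ncapd2-203, only 682 bases long, stood at 1354, 974.6, 1624 and 1513 TPM at rest and at 354.5, 187.4, 330.3 and 281.6 TPM after LPS, and its coding transcript Ncapd2-201 at 9.79, 19.86, 16.44 and 22.61 TPM and then at 74.37, 45.79, 59.63 and 51.37 TPM. The sum fell by 1.92 on the log2 scale while the coding transcripts rose by 1.71. Whether the reads given to Ncapd2-203 came from finished messages was not tested. The other 4 were Polg2, Aldh1l2, Alkbh6 and Neu1, of which the last 3 were not called by the sum without line co. In Eif4a1, a helicase of translation initiation, the coding Eif4a1-213 rose from 13.8% to 85.6% of the gene and the retained intron Eif4a1-202 went from 55.3% to 5.5%. In Ccnd3, a D-type cyclin whose total overlapped between the groups, Ccnd3-205 went from 22.0% to 79.3%. Xbp1-201 went from 65.6% to 78.9% of Xbp1, the factor of the secretory programme; the spliced form that the enzyme IRE1 makes is not a separate transcript here.

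Promoters were described by short motifs in the RefSeq windows from 250 bases before to 50 after the start (GRCm38.p6), on both strands, for the 8838 tested genes with a match. CCAAT stood in 43.5% of all these genes, in 53.3% of the genes called higher by more than 2 and in 40.3% of those called lower by more than 2. The interferon response motif, GAAA repeated after 2 bases of any kind, stood in 4.16% of all, 1.90% of the higher and 11.9% of the lower genes. TGANTCA, the AP-1 site, stood in 5.83%, 7.62% and 12.3%, and TTTGAA, the core of the CHR element of mitotic genes, in 14.7%, 20.5% and 16.7%. Among 29 kinetochore genes 44.8% held TTTGAA in this window. CACGTG, the E-box that Myc and hypoxia factors bind, stood in 12.1%, 13.8% and 8.77%, and TGACGTCA, the cyclic AMP element, in 3.71%, 3.33% and 2.51%. A loose NF-kappaB motif stood in 71.5%, 68.6% and 67.8%. A window counted once for a motif however often it held it, and matches of different motifs may overlap. A match is a string of letters and says nothing on binding here.

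4 promoters of genes described above are shown, each as the 250 bases before the start with its motif in capitals: Dusp1 at chr17:26508473-26508722 (minus strand, TGACGTCA first base at -143), Rsad2 at chr12:26456453-26456702 (minus strand, the interferon response motif read on the other strand, first base at -120), Ncapg at chr5:45669675-45669924 (plus strand, TTTGAA at -30) and Ldha at chr7:46845554-46845803 (plus strand, CACGTG at -145 and -48).
Dusp1: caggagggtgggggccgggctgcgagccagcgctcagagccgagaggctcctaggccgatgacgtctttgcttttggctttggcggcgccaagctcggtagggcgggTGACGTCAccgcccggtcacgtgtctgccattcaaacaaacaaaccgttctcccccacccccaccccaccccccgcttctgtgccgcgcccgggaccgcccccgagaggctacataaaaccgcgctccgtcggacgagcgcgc
Rsad2: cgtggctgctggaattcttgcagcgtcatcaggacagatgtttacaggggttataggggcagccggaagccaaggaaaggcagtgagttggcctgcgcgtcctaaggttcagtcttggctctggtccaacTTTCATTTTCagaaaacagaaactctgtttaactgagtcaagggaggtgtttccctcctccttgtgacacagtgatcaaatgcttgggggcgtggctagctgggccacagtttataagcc
Ncapg: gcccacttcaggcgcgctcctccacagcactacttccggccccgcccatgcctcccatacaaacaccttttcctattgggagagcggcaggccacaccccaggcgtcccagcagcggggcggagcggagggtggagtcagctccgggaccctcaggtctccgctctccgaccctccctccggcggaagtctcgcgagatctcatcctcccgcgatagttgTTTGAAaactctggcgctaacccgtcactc
Ldha: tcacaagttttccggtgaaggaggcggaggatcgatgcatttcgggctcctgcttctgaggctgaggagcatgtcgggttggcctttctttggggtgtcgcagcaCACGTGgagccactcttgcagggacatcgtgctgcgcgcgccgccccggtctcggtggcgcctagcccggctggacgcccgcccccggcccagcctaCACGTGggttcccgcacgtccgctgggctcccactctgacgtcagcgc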

How the data were processed

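Total RNA was depleted of ribosomal RNA, made into stranded libraries and read as pairs, per the labels' protocols. The authors deposited 1 table of TPM values per transcript and sample, made with kallisto 0.43 on mm10/GRCm38 per the submitters' processing notes, which also name FastQC. The labels and the header state neither annotation release nor strand setting. The deposited transcript lengths and effective lengths served to estimate read pairs from the steps of low TPM values (a share of 64.3 to 76.4% of low values lay within 0.02 of a whole read, so that depth is approximate).

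Transcripts were summed per gene. The test was limma 3.58.1 (R 4.3.3; trend and robust empirical Bayes) on log2(TPM + 1), in genes of 1 TPM or more in 4 of the 8 samples, LPS against resting over the 4 lines with no block, and Benjamini-Hochberg adjustment over all genes tested. Transcripts were tested the same way. Transcript usage was log2 of (transcript TPM + 1) over (TPM of the gene's other transcripts + 1), in genes with at least 5 TPM. The interaction term compared the response of the transgenic lines with that of wt. The gene fit was tested on simulated data. Shares of TPM were tested by exact permutation of 4 against 4 samples.

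The members, gene lists and tests were chosen with earlier results of these data known. Named genes were the 25 largest called changes each way outside lists of other cells, the 3 largest called changes each way of every list, members of marker lists, and some fixed genes and transcripts; of the transgenic comparison up to 8 genes each way. Tlr4, Cd180, Mki67, Irf4 and others with their values were chosen with those values seen. Some genes that the rule names are not reported here. Promoter windows and their starts are from RefSeq (GRCm38.p6). Alternatives were other pseudocounts, filters, scalings and sample weights, a block for the line, leaving out each sample or line, and, chosen after seeing the data, leaving out the libraries rich in Gm10800 and using coding transcripts only.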

Additional observations from a re-analysis of the deposited data

Results flagged for a closer look

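Among 282 groups of 4 samples (141 named genes, resting and LPS-treated), 27 held a sample that stood apart from the other 3 by Dixon's rule, which chance alone passes in about 1 of 20 groups. Resting wt was the high sample for Ahr at 24.8 TPM, Tnfaip3 at 182 TPM, Aldh1l2 at 12.7 TPM, Clk4 at 216 TPM, Irf4 at 230 TPM, Nr4a1 at 197 TPM, Dusp1 at 221 TPM, Cr2 at 900 TPM and Cd69 at 546 TPM. LPS-treated wt was high for Dusp1 at 7.01 TPM, Clk1 at 108 TPM, Oasl2 at 7.57 TPM, Usp18 at 16.2 TPM, Isg20 at 34.3 TPM, Fcrl5 at 71.6 TPM, H2-Q7 at 97.3 TPM and Rpl15-ps3 at 142 TPM. LPS-treated cr was low for Calr at 605 TPM, Ncapg at 44.5 TPM, Kpna2 at 293 TPM, Hells at 99.3 TPM, Gars at 141 TPM, Slc7a3 at 12.2 TPM and Eif4ebp1 at 68.0 TPM, and high for Hspa1a at 4.99 TPM. This library also held the most Gm10800, and scaling by the median of ratios gave it the lowest factor of the 8, 0.816. Resting cr was high for Fabp5 at 15.5 TPM and Usp18 at 54.0 TPM.

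The interaction term called 30 genes for a response to LPS that was unequal between the transgenic lines and wt, from 1 wt sample per treatment and so with no spread of the wt response; only Rpl15-ps3 was called under median-of-ratios scaling or after rescaling without erythroid and macrophage genes. The fitted value was more positive in the transgenic lines for Ahr by 2.86, Lyz2 by 2.82, 4930519F16Rik by 2.42, Btg3 by 2.23, Hacd1 by 2.11, Myc by 2.07 and Egr1 by 2.00 on the log2 scale. It was more negative for Rpl15-ps3 at -14.38, Isg20 at -3.54, Hist2h3c2 at -3.50, Hist1h3c at -3.33, Hist2h2aa1 at -3.18, Hist1h3g at -3.15, Hist2h3b at -2.89 and Hist1h2ap at -2.81. The histone genes are near-identical copies, and the Myc level of the transgenic lines may include reads of the transgene.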

How the results depend on the processing

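The 8 samples come to 1 per line and treatment, so that a line and a library cannot be told apart, and depth limits transcripts of low level: at 1500 bases, 3 reads are 0.068 to 0.106 TPM. Genes called numbered 5874 to 7070 when single samples were left out and 4873 to 6445 when a line was; of the calls, 97.8% were kept under median-of-ratios scaling and 69.4% without line co. Transcripts called numbered 12731 to 15526 and transcript usage calls 7792 to 9104 without single samples, against 16381 and 9540. With a minimum of 5 TPM, 8889 transcripts and 4942 usage differences were called, and without the libraries rich in Gm10800, 9402 and 5554. Calls in the gene lists, 771 of 998, ranged from 653 to 849 over the settings run.

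Calls for the transgenic lines against wt depended on nearly every choice: 30 became 349 with a minimum of 5 TPM, 119 with a pseudocount of 0.1, 9 with a pseudocount of 5, and 1 both under median-of-ratios scaling and after rescaling without erythroid and macrophage genes; the cause was not tested.

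With the line as a block, 7250 genes, 15995 transcripts and 8237 usage differences were called, and 786 list members. Among the 141 named genes checked, Hist1h2ah, Isg20 and mt-Co2 were then not called. Hist2h3c2, named only in the transgenic comparison, was then not called either. The labels do not say that a line pairs the samples; same-line deviations correlated by 0.058 (wt), 0.222 (cr), 0.340 (co) and 0.063 (hv), and wt and hv correlated best with another line.

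Of 141 named genes, 115 kept direction and call under every one of the 25 alternatives in which they were tested, and 8 changed sign under at least 1. Not every named gene passed the filter in every alternative, and a gene left out there counts as kept. With coding transcripts only, Ncapd2 stood at 1.71, Polg2 at 1.32, Aldh1l2 at 1.12, Alkbh6 at 0.68, Neu1 at 0.52 and Ccnd3 at 0.29, and the amino acid transporter median at 0.023, as with a minimum of 5 TPM. Myc, not called, stood at 0.095 with sample weights, 0.023 without resting wt and 0.14 without LPS-treated wt, and over all the settings that left out a sample or line it ran from -0.44 to 0.34. Irf4, not called, ran from -0.059 without line hv to 0.56 without resting wt, with -0.054 without resting hv.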
